A study of Mus musculus with 12 samples.

Results

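The T cell receptor gene loci Tra, Trb, Trd and Trg were examined for H3K9/14ac, the acetylation of lysines 9 and 14 on histone H3 that marks active promoters and enhancers. The 4 loci were taken by position on GRCm38: Trb on chromosome 6 from 40.85 to 41.6 Mb, Tra and Trd together on chromosome 14 from 52.4 to 54.3 Mb, and Trg on chromosome 13 from 19.15 to 19.4 Mb. These intervals hold 270 annotated variable (V), diversity, joining (J) and constant (C) segments. They contain 86 of the 40909 regions of the authors' deposited table of differential binding, and 80 to 108 of the 39264 to 43507 peaks of a library.

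A T cell receptor chain is made by V(D)J recombination, in which the RAG recombinase joins a V segment, in some chains a diversity segment, and a J segment, and the joined exon is spliced to a C segment. Trb and Tra encode the chains of the alpha beta receptor carried by CD4 T cells, and Trg and Trd those of the gamma delta receptor. Trd lies inside Tra, between its V and J segments, so a V to J joining of Tra removes Trd from that chromosome together with the Tra V segments between those joined.

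The series compared T helper 17 (Th17) cells of C57BL/6 mice that were wild type (WT) or Slc2a3 fl/fl with Cd4-cre (KO). Slc2a3 encodes the glucose transporter GLUT3. Naive T cells of both genotypes were cultured for 3 days under Th17 conditions, then given PMA and ionomycin together with Bref A and Monensin for 3 h. There were 3 ChIP libraries per genotype, barcoded by RELACS and pooled into one immunoprecipitation with 5 µg of antibody, and 6 input samples that were not analysed here. Cd4-cre deletes in all cells that passed through CD4 expression in the thymus, so the deletion is not limited to Th17 cells, and the labels name the transgene for KO alone. The labels do not say whether the libraries of a genotype came from separate mice, so every p-value here measures a spread that may be technical.

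Mean coverage, recovered from the peak lists, was 2.97 to 3.99 fragments in WT and 1.85 to 2.29 in KO libraries, so a faint peak was harder to call in KO. All peaks together covered 67.4 Mb ± 2.76 (SD, n = 3) in WT and 55.8 Mb ± 2.40 (SD, n = 3) in KO. Chromosome Y held 11 peaks in KO replicate 3 and 1 or 2 in every other library, so values without KO replicate 3 are given below. With 3 libraries per genotype an exact permutation test reaches no p below 0.1. At an FDR under 0.05 the authors' deposited table called 46.3% of all regions lower and 12.7% higher in KO, with a median log2 fold change of -0.62 over all regions. That table sits 0.30 (log2) lower than a scaling by mean coverage, so its values are read against that median. In bulk chromatin, fewer cells with a locus in a given state, fewer DNA copies and less acetylation per copy cannot be told apart.

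Promoter sequences exist in RefSeq (GRCm38.p6) for a pair of long non-coding RNA genes whose promoters lie wholly or in part under peaks of the loci. They are shown for their places in the Tra V array and in Trd. Gm30214 starts inside the Tra V array, at chr14:53039417-53039716 on the minus strand, under the region that fell most clearly in KO. Its 300 bases lay wholly under peaks of 3 of 3 WT libraries and of KO replicates 2 and 3, and outside every peak of KO replicate 1. The capitals mark its only match to TGTGGT, the core of Runx sites, searched on both strands and read here as the reverse complement.
Gm30214: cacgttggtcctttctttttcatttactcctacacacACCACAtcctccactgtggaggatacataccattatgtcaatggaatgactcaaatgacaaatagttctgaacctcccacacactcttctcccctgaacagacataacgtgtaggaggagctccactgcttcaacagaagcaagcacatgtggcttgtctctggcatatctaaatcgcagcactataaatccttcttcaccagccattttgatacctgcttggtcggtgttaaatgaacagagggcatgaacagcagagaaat
Gm30275 starts inside Trd, between Trdj1 and Trdj2, at chr14:54125684-54125983 on the minus strand. Its first 116 bases, in capitals, lay under peaks of KO replicates 2 and 3, and no base of it lay under a peak of any WT library or of KO replicate 1. It lies in no region of the authors' deposited table.
Gm30275: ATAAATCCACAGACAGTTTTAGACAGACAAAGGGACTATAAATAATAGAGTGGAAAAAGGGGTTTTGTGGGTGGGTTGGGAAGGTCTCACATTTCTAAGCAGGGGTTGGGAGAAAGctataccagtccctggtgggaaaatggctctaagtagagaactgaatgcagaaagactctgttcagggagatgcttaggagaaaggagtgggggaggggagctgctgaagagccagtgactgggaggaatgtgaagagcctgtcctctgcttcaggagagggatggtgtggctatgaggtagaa
TGTGGT occurs on either strand in 16.8% of the 32851 RefSeq promoters of this length, and CAGGTG, an E-box bound by E proteins, in 20.2%. Gm30275 holds neither motif and Gm30214 holds no CAGGTG.

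The loci did not change in one direction. Acetylation over Trg and Trd segments was higher in KO, the V segments of Tra far from its J segments were lower, the 5′ end of the Tra J array was higher, and the C genes of Tra and Trb carried tall peaks in both genotypes. Of the 86 regions, the authors' deposited table called 19 lower and 19 higher, with a median log2 fold change of -0.42. The authors' deposited table called 8 of 17 Tra V regions lower, close to the share over all regions, and 9 of 34 Trb regions, a smaller share. Summit heights, recovered as fragments and divided by the mean coverage of the library, did not overlap between genotypes in 11 of the 30 locus regions that had a peak in all 6 libraries, where 44.7% of all such regions did not. The higher calls held 10 of the 11 regions of the Trg interval and all 6 regions from Trdd1 to Trdv5 in the authors' deposited table, against the 12.7% over all regions.

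**Figure D1:**
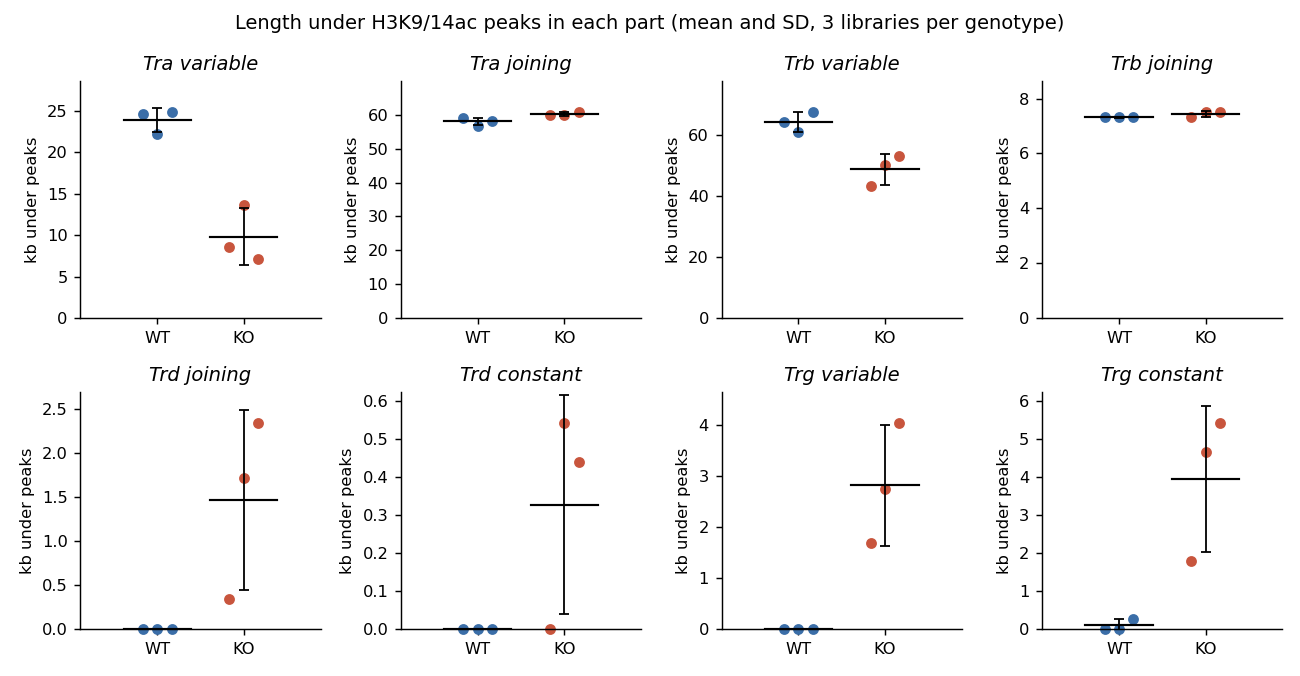
Length under H3K9/14ac peaks (kb, y axis from 0) in the V, J and C parts of the loci, in 3 WT and 3 KO libraries (points), with mean and SD. The Tra V part has 22210 to 24852 bp in WT and 7124 to 13698 bp in KO, while the Trg V part has 0 bp in WT and 1681 to 4055 bp in KO.

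Trg encodes the gamma chain, which alpha beta T cells do not use. Its V segments had no base under a peak in any of the 3 WT libraries, and 1681, 2742 and 4055 bp under peaks in KO replicates 1, 2 and 3. The groups did not overlap (exact permutation test, two-sided p = 0.1, the smallest that 3 against 3 libraries allow; 0.2 after Benjamini-Hochberg adjustment over 12 locus parts). Over the C part the values were 0, 0 and 273 bp in WT, against 1782, 4670 and 5440 bp in KO. KO replicate 1, the library of lowest coverage, was the lowest KO library in both parts. Without KO replicate 3 the KO libraries still exceeded WT by 2212 bp over V segments and by 3135 bp over the C part. With peaks called on single reads, which cover 27929792 to 38622065 bp of the genome per library against 53680957 to 70521560 bp for paired-end peaks, the differences were 677 bp over V segments and 414 bp over the C part, and the groups overlapped (exact permutation test, two-sided p = 0.4 for both).

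All Trg peaks over segments lay in 2 stretches of the chromosome, from Trgv7 to Trgc1 and from Trgv2 to Trgc4. One further peak, in KO replicate 3 alone with a height of 8.33, lay between Trgc2 and Trgj2 from 19309519 to 19309847, and no peak was called over Trgv3, Trgj3, Trgj2 or the C genes Trgc3 and Trgc2 in any library. Regions with a peak in 3 of 3 KO and 0 of 3 WT libraries numbered 5 in Trg of 15 regions with any peak, where 2.11% of all 56643 regions have that pattern. The widest was at Trgv2, from 19337291 to 19339454 on chromosome 13, with summit heights of 9.19, 10.5 and 13.5 times mean coverage in KO replicates 1, 2 and 3. The region over Trgv4, from 19184429 to 19185478, had heights of 8.65, 10.9 and 23.4. That over Trgc1, from 19212825 to 19214320, had 7.57, 7.42 and 10.4. At the start of Trgc4 a region from 19344311 to 19345433 had 7.57, 6.99 and 9.38. The fifth, from 19345854 to 19346683, had 9.73, 8.30 and 10.4. With peaks called on single reads the number with that pattern was 0, since KO replicate 1 then had no peak over Trg segments. The heights are low beside those at Trac and Trbc2 given below. The tallest Trg region, over Trgc4 from 19348354 to 19351185, was the only one with a WT peak: WT replicate 3 had a height of 5.72, and the KO libraries had 13.5, 18.3 and 24.5.

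The authors' deposited table called all 10 tested regions of Trg segments higher in KO, with log2 fold changes of 1.80 to 2.51. The lowest FDR in the authors' deposited table was at Trgc4, from 19348351 to 19348950, with a log2 fold change of 2.51 (FDR = 5.3e-09). The smallest change of the 10, 1.80, was also over Trgc4 (FDR = 1.61e-06 in the authors' deposited table). Over Trgv4 the region from 19185001 to 19185600 had 2.16 (FDR = 1.23e-05), and over Trgv1 the region from 19340101 to 19340550 had 2.35 (FDR = 5.49e-06), both in the authors' deposited table. The remaining region of the interval lies at the end of Stard3nl, a neighbouring lipid transport gene, and was not called (-0.26, FDR = 0.77 in the authors' deposited table). The Stard3nl peak had heights of 37.3 to 42.8 in WT and 39.3 to 51.6 in KO, and the groups overlapped.

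Trd encodes the delta chain. From Trdd1 to Trdj2 no WT library had a peak, and KO replicates 1, 2 and 3 had 342, 1714 and 2345 bp under peaks (exact permutation test, two-sided p = 0.1). Without KO replicate 3 the difference was 1028 bp. With single-read peaks it was 181 bp and the groups overlapped (exact permutation test, two-sided p = 0.4). Over Trdc the KO libraries had 0, 543 and 439 bp, so KO replicate 1 was as low as WT there and the groups overlapped. The V segments from Trdv1 to Trdv4 were nearly free of peaks: 1 region over Trdv2-2 had a peak, in KO replicate 3 alone.

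Regions with peaks in 3 of 3 KO and 0 of 3 WT libraries were 2 of the 12 in Trd, where 2.11% of all regions have that pattern. With single-read peaks the number in Trd was 0. One lies 3′ of Trdj1, from 54123717 to 54124912 on chromosome 14, with heights of 10.8, 8.73 and 9.90 in KO replicates 1, 2 and 3. The other lies between Trdv5, an inverted V segment downstream of Trdc, and the Tra J array. It runs from 54150046 to 54151296, with heights of 5.41, 8.30 and 7.81. The only Trd region with a peak in all 6 libraries lies between Trdc and Trdv5, from 54146906 to 54147722. Its heights were 5.01, 8.90 and 8.42 in WT and 18.9, 11.8 and 17.7 in KO. The groups did not overlap, and the limma fit over all regions with 6 peaks gave a log2 difference of 1.12 ± 0.23 (SE, n = 3 per genotype, adjusted p = 4.66e-04).

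All 6 regions from Trdd1 to Trdv5 rose, by 1.04 to 3.04 on the log2 scale of the authors' deposited table. The largest, 3.04, was between Trdj2 and Trdc (FDR = 1.68e-06 in the authors' deposited table). Next to Trdj1 the changes were 2.58 (FDR = 6.82e-06) and 2.22 (FDR = 1.41e-06) in the authors' deposited table. The smallest was next to Trdv5 (1.04, FDR = 0.0079 in the authors' deposited table).

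**Figure D2:**
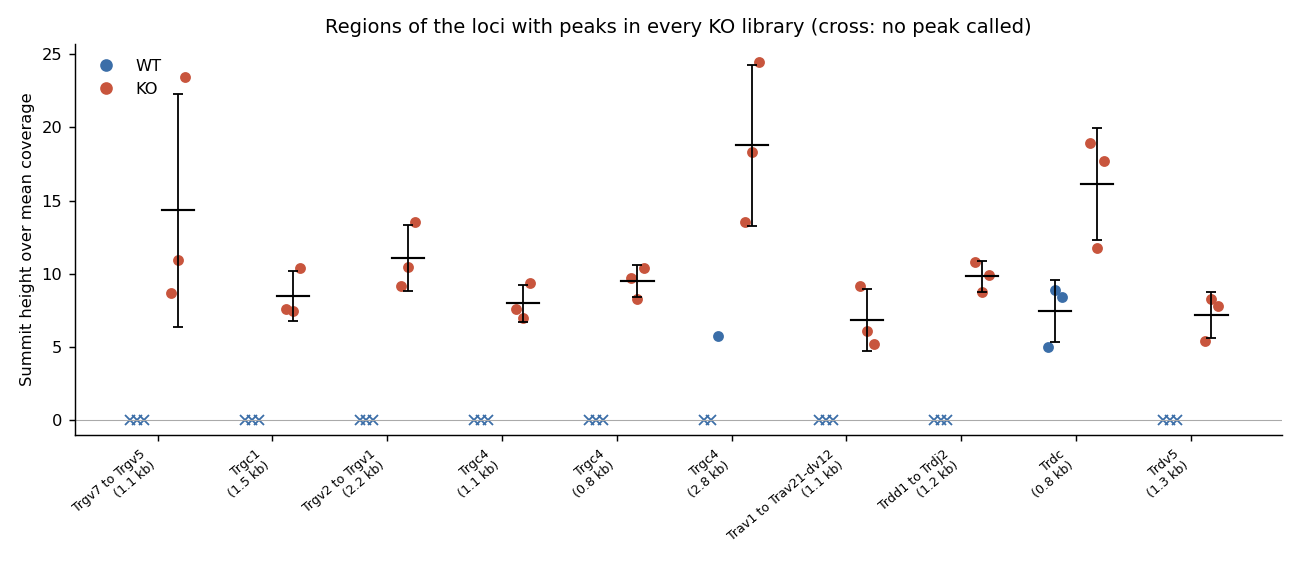
Summit height over mean coverage (y axis) in regions of the loci with peaks in 3 of 3 KO and 0 of 3 WT libraries. The tallest Trgc4 region and the region between Trdc and Trdv5, which also have WT peaks, are added. Other regions with peaks in all 3 KO libraries and in WT, such as those at Trav18, Trav14-3, Trav15-1-dv6-1 and Trbv14, are not drawn. Points are 3 WT (blue) and 3 KO (red) libraries, with crosses at 0 where no peak was called. Mean and SD are shown where all 3 libraries of a genotype have a peak. WT points appear in the region over Trgc4 (5.72, WT replicate 3) and in that next to Trdc (5.01 to 8.90).

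These gains were set beside genes that mark gamma delta T cells. Their highest summits, added over 8 marker genes, came to 308 to 331 times mean coverage in WT and 416 to 482 in KO. Of the 5 tested in the authors' deposited table, 2 were lower and 2 higher, where 64.3% of protein-coding genes were lower and 6.4% higher. Zbtb16, which encodes the innate-like T cell factor PLZF, and Maf were higher, with log2 fold changes of 1.86 and 1.11 (FDR = 1.47e-05 and 0.00124 in the authors' deposited table). Cd163l1, a scavenger receptor gene of gamma delta T cells, was lower (-1.05, FDR = 0.00197), as was a region at Etv5 (-1.22, FDR = 0.00374) in the authors' deposited table. The mean over the 2 regions of Etv5 was -0.25 in the authors' deposited table, and its highest summit was 50.9, 37.9 and 35.7 in WT and 108, 119 and 103 in KO, so the direction for Etv5 differs between these measures. Sox13, which encodes a gamma delta lineage factor, had summits of 18.8, 24.4 and 22.2 in WT, and 10.5 in KO replicate 2 alone among the KO libraries. Blk had none in WT and 13.5 and 11.5 in KO replicates 1 and 3. The part of gamma delta T cells in the Trg and Trd differences was not tested.

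Tra V segments are spread over 1450786 bp, and a large share of them belong to near-identical duplicated sets, with names that carry a d or an n, so reads there can map to more than one copy. In WT, peaks covered 24613, 22210 and 24852 bp of the Tra V part, and in KO 8636, 13698 and 7124 bp. The groups did not overlap (exact permutation test, two-sided p = 0.1), and the KO mean was 0.41 times the WT mean. Over all peaks of the genome that ratio was 0.83. The covered length dropped by 14072 bp with all libraries and dropped by 12725 bp without KO replicate 3. With single-read peaks it dropped by 4153 bp, and the groups still did not overlap. A peak lay within 1 kb of 20, 17 and 19 of the 128 V segments in WT and of 10, 13 and 8 in KO.

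The difference varied along the array. The V segments were grouped by their distance from Trac, with limits chosen after the values were seen and so without a test. More than 1000 kb from Trac, peaks covered 9142 bp ± 1637 in WT and 2148 bp ± 1078 in KO (SD, n = 3). Between 500 and 1000 kb they covered 10602 bp ± 671 and 2794 bp ± 553 (SD, n = 3). Under 500 kb, nearest to the J segments, they covered 4148 bp ± 448 and 4877 bp ± 1963 (SD, n = 3), and the groups overlapped. The same order appears in the authors' deposited table, where the 6 regions farthest from Trac were all called lower with a median log2 fold change of -2.04, 2 of 7 in the middle group were lower with a median of -0.59, and none of 4 in the nearest group was called, with a median of 0.62.

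**Figure D3:**
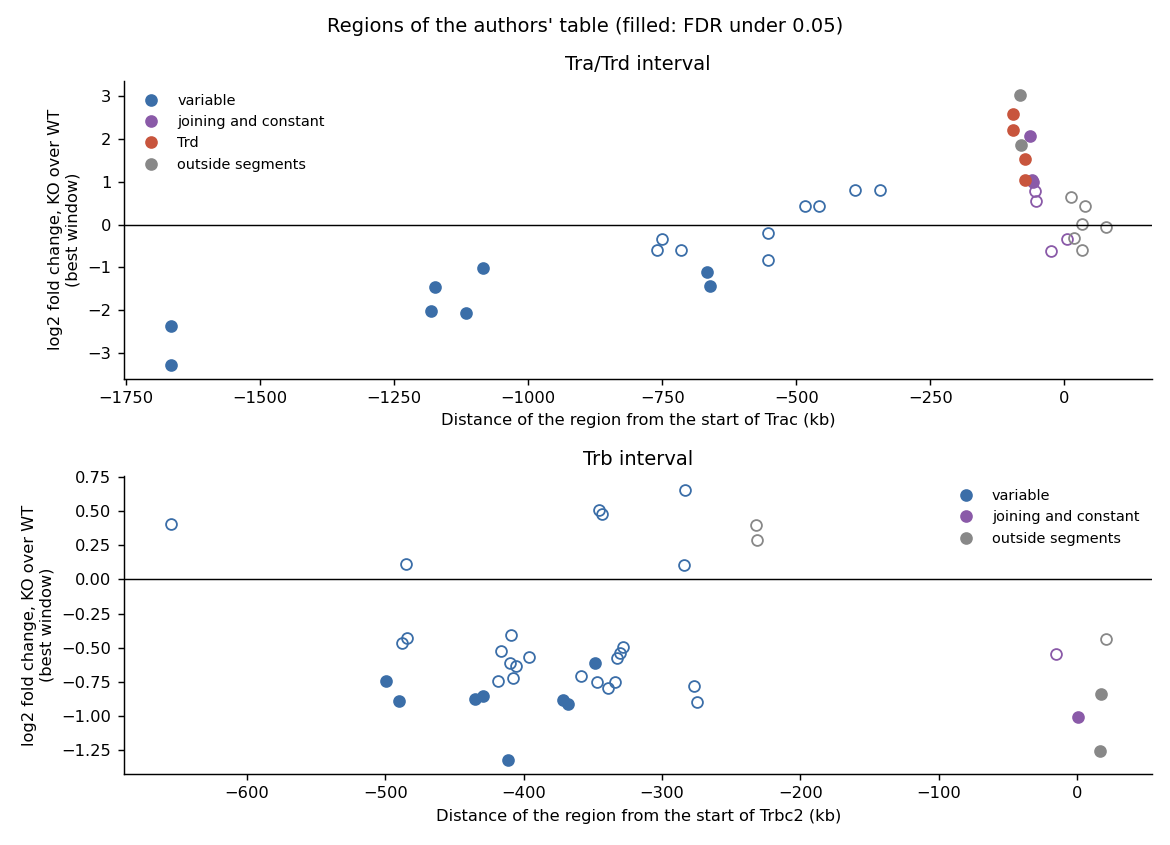
Log2 fold change of KO over WT at the best window (y axis) of each region in the authors' deposited table against its distance from the start of Trac (upper panel) or of Trbc2 (lower panel) in kb, filled where the FDR is under 0.05. In the upper panel V regions run from -3.29 at the far end to 0.81 at the near end. The regions from Trdd1 to Trdv5 follow, between 1.04 and 3.04. Those between Trdj2 and Trdc, with the 3.04 among them, are drawn as outside segments. In the lower panel most regions lie between 0 and -1.32.

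The tallest Tra V region lies 1075 bp from Trav8d-2, from 53038561 to 53041352 on chromosome 14, and holds the start of Gm30214. Its heights were 35.1, 42.8 and 46.5 in WT and 17.8, 17.9 and 16.1 in KO. All KO libraries were below all WT libraries, and limma gave a log2 difference of -1.24 ± 0.16 (SE, adjusted p = 1.25e-06). All 19 windows of this region fell in the authors' deposited table, with -2.03 at the best window and the lowest FDR of the Tra V part (4.91e-14). The region over Trav15-1-dv6-1, a V segment that can join Tra or Trd, had heights of 13.3, 14.4 and 15.2 in WT and 6.49, 8.73 and 8.85 in KO. It fell in the limma fit as well (-0.81 ± 0.20, SE, adjusted p = 0.00274). The region at Trav8-2, nearer to the J segments, had 9.53, 14.6 and 12.1 in WT and 8.65, 16.2 and 13.0 in KO, and the groups overlapped.

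Regions with peaks in 3 of 3 WT and 0 of 3 KO libraries numbered 5 in the Tra V part of 62 with any peak, where 5.04% of all regions have that pattern, and 2 with single-read peaks. They lay 11901 bp from Trav2 (heights 5.52, 8.04 and 10.8), over Trav2 (8.02, 8.61 and 8.42), over Trav10 (12.3, 10.0 and 14.8), over Trav14-1 (10.0, 8.33 and 8.42) and near Trav5-2 (4.76, 6.03 and 7.07). The largest fall of the loci in the authors' deposited table, -3.29 (FDR = 1.07e-07), was in the first of these. The one Tra V region with KO peaks alone was over Trav21-dv12, the V segment nearest to Trd, with heights of 9.19, 6.11 and 5.21. Of all regions, 2.11% have peaks in 3 of 3 KO and 0 of 3 WT libraries.

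The Tra J array holds 60 segments, of which those at its 5′ end are used in the first rounds of recombination and those at its 3′ end in later ones. Peaks covered 56775 to 59081 bp of it in WT and 59780 to 60810 bp in KO, a difference of 2197 bp (exact permutation test, two-sided p = 0.1), and 1895 bp without KO replicate 3. With single-read peaks it was 2004 bp and the groups overlapped (exact permutation test, two-sided p = 0.4). The gain was at the 5′ end. The region from 54158565 to 54166966 had heights of 9.78, 10.9 and 12.8 in WT and 17.3, 17.0 and 21.4 in KO, with a limma log2 difference of 0.73 ± 0.19 (SE, adjusted p = 0.00387). Traj60 lies in a region that rose by 2.07 in the authors' deposited table (FDR = 0.00224), Traj56 in one that rose by 1.03 (FDR = 0.0214) and Traj55 to Traj53 in one that rose by 1.00 (FDR = 0.0177).

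The rest of the J array lay in one region of 55120 bp, which ran past Traj1 into Trac. Its heights were 106, 110 and 113 in WT and 133, 137 and 133 in KO. The summit of 113 in WT replicate 3 lay outside the J part, where the tallest summit of that library was 45.8. The groups did not overlap, and limma gave a log2 difference of 0.29 ± 0.10 (SE, adjusted p = 0.0202), which was lost without KO replicate 2 (adjusted p = 0.0736). The authors' deposited table did not call this region (FDR = 0.19), with 16 of its 368 windows up and 8 down and -0.61 at the best window, so the direction differs between these measures.

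Trac, the alpha constant gene, lay under peaks over the same 5231 bp in all 6 libraries. The region from 54222657 to 54227379 starts inside Trac. Its heights were 110, 148 and 133 in WT and 131, 149 and 148 in KO. The groups overlapped, with a limma log2 difference of 0.14 ± 0.11 (SE, adjusted p = 0.33). This region was not called in the authors' deposited table (-0.34, FDR = 0.56). The sequence between Trac and Dad1, which in the mouse holds the Tra enhancer, had heights of 97.3, 134 and 128 in WT and 139, 157 and 133 in KO. Those groups overlapped (limma log2 difference 0.27 ± 0.11, SE, adjusted p = 0.0669), and the fit without WT replicate 2 called it higher (0.35, adjusted p = 0.0293). The authors' deposited table did not call that sequence (0.65, FDR = 0.54).

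Trb encodes the beta chain, and its V segments carried more acetylation per length than those of Tra. Peaks covered 16.3% of the Trb V part in WT and 12.4% in KO, and 1.65% and 0.68% of the Tra V part. In bases, Trb V peaks covered 64384, 61160 and 67709 bp in WT and 43314, 50351 and 53155 bp in KO. The groups did not overlap (exact permutation test, two-sided p = 0.1), and the ratio of means was 0.76, near the 0.83 of all peaks. Without KO replicate 3 the covered length dropped by 17585 bp, and with single-read peaks it dropped by 6285 bp with overlapping groups (exact permutation test, two-sided p = 0.2). The number of the 35 V segments with a peak within 1 kb was 25, 26 and 26 in WT and 21, 26 and 25 in KO, so fewer bases were covered at a like number of segments.

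The tallest summit over Trb V segments was next to Trbv13-2, with 69.7, 77.8 and 85.5 in WT and 83.2, 83.0 and 80.2 in KO. Trbv21 followed, with 48.4, 62.9 and 54.9 in WT and 85.9, 80.3 and 87.0 in KO. That region did not overlap between genotypes and rose in the limma fit (0.62 ± 0.12, SE, adjusted p = 2.24e-04). The authors' deposited table did not call it (0.48, FDR = 0.20). Trbv23 had 28.1 to 34.3 in WT and 23.1 to 29.7 in KO, the region of Trbv18 and Trbv19 had 30.1 to 34.7 and 27.1 to 30.7, and Trbv1 had 18.3 to 21.2 and 24.0 to 30.8. Of the 14 Trb V regions fitted, 2 rose and none fell in limma, where 19.9% of all 20108 fitted regions rose and 14.6% fell. The other that rose lies 2335 bp from Trbv28 (0.65 ± 0.21, SE, adjusted p = 0.0162), with heights of 9.28, 7.47 and 6.73 in WT and 10.8, 14.0 and 12.0 in KO. That call was lost without WT replicate 2, WT replicate 3 or KO replicate 2 (adjusted p = 0.0562, 0.089 and 0.0803).

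Among 32 Trb V regions the authors' deposited table called 8 lower and none higher, with a median log2 fold change of -0.62, equal to that of all regions. The largest fall was at Trbv14 (-1.32, FDR = 0.0091 in the authors' deposited table). The lowest FDR, 0.00595, was next to Trbv12-1 (-0.88 in the authors' deposited table), and the highest fold change, 0.66 near Trbv28, was not called (FDR = 0.078). Over Trbv2 the value was -0.74 (FDR = 0.00719 in the authors' deposited table), while heights were 26.1, 23.8 and 20.9 in WT and 19.5, 19.2 and 20.8 in KO (limma log2 difference -0.24 ± 0.17, SE, adjusted p = 0.30). Regions with peaks in 3 of 3 WT and 0 of 3 KO libraries were 3 of the 43 over Trb segments, where 5.04% of all regions have that pattern. They lay near Trbv14 (heights 5.77, 5.74 and 10.1), over Trbv20 (5.77, 11.8 and 7.07) and 5327 bp from Trbv21 (8.27, 9.76 and 12.5). A further one lay outside the segments, from 41522189 to 41524668, with heights of 6.27, 5.17 and 6.40.

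Apart from Trbd1, the D, J and C segments of Trb share one region of 27819 bp. This region runs from 41533857 to 41561675 on chromosome 6 and reaches the inverted segment Trbv31. It was the tallest region of the loci, at 226, 257 and 256 times mean coverage in WT and 257, 262 and 314 in KO. Every KO library exceeded every WT library by a narrow margin, and the limma log2 difference was 0.17 ± 0.09 (SE, adjusted p = 0.17). Trbc1 and Trbc2, the beta constant genes, were covered over their whole 6899 bp in all 6 libraries. The authors' deposited table called this region lower (FDR = 0.0113), with 13 of 182 windows down, 1 up and -1.01 at the best window, which lies at its 3′ edge. A pair of regions 3′ of it fell as well in the authors' deposited table (-1.26, FDR = 0.00166, and -0.84, FDR = 0.00142). The Trbd1 side, from 41529084 to 41533187, had heights of 45.9, 41.1 and 50.8 in WT and 44.9, 55.9 and 45.8 in KO, with overlapping groups.

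**Figure D4:**
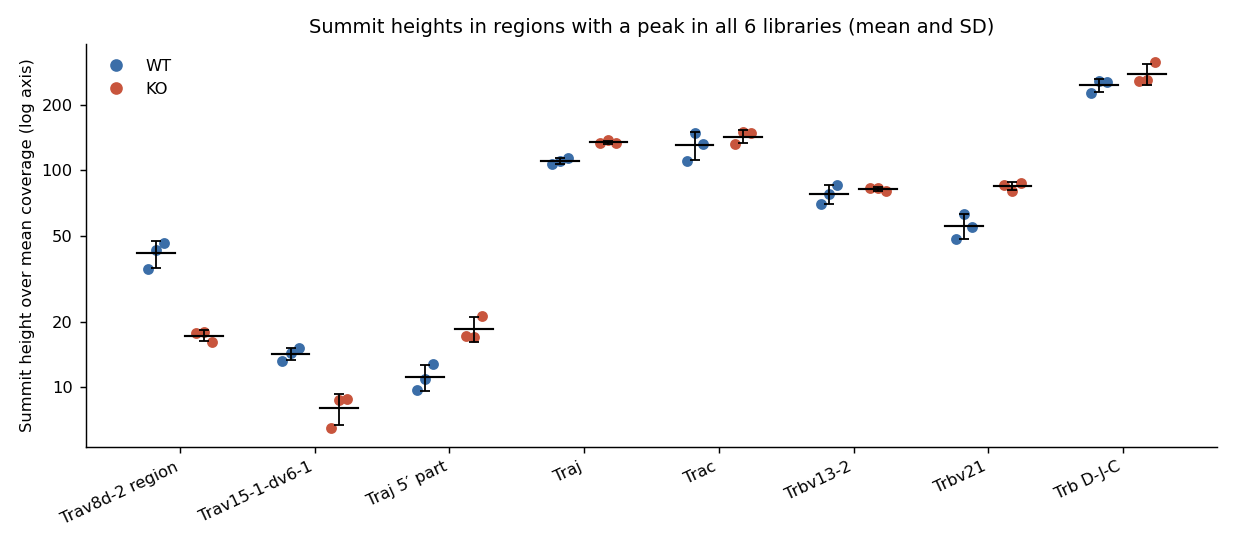
Summit height over mean coverage (log axis) in 8 regions of Tra and Trb with a peak in all 6 libraries, for 3 WT (blue) and 3 KO (red) libraries with mean and SD. The region near Trav8d-2 has 35.1 to 46.5 in WT and 16.1 to 17.9 in KO, the 5′ part of the Traj array and Trbv21 are higher in KO, and Trac overlaps between genotypes.

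The patterns of the C genes across the 6 libraries were compared with those of 11267 protein-coding genes that had a summit in every library. The highest summit over Trac varied most like those of Ppp1r10 and Mrps18b, which share a summit (Pearson r = 0.99), and of Slc35e1 (r = 0.99). For the beta constant genes the nearest were Mrpl45 (r = 0.99), and Cwc25 and Pip4k2b, which share a summit (r = 0.99). With 6 libraries that differ in depth and genotype these values are descriptions.

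The genes of the receptor complex encode the signalling chains that assemble with the receptor. All 4 tested in the authors' deposited table were lower in KO, where 64.3% of protein-coding genes were, with a median log2 fold change of -1.19 against -0.81 over those genes. Cd247, the zeta chain gene, had -2.18 (FDR = 2.61e-12) and Cd3e -1.50 (FDR = 2.99e-07) in the authors' deposited table. Cd3d and Cd3g share one region (-0.87, FDR = 0.00194 in the authors' deposited table). Cd247 heights were 70.2, 82.1 and 85.9 in WT and 51.9, 49.8 and 54.7 in KO, without overlap, whereas Cd3e heights were 132 to 163 and 154 to 161, with overlap. Ptcra, which encodes the surrogate alpha chain of immature thymocytes, had no summit in any library.

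Of 14 transcription factor genes with known roles at these loci, the authors' deposited table had 11 lower and none higher, where 64.3% of protein-coding genes were lower and 6.4% higher, with a median of -1.02 against -0.81. Tcf7 had -1.47 (FDR = 6.91e-09), Runx1 -1.39 (FDR = 6.3e-09), Ets1 -1.66 (FDR = 1.9e-08) and Ikzf1 -1.04 (FDR = 1.09e-05) in the authors' deposited table. The highest summit near Runx1, which the fold change does not describe, was 81.3 to 87.5 in WT and 110 to 113 in KO. That of Ikzf1 was also higher in KO (122 to 139 in WT, 160 to 166 in KO). That of Tcf7 was lower (66.9 to 82.1 in WT, 48.5 to 56.2 in KO). Added over the 14 genes, the highest summits came to 1028 to 1233 in WT and 1304 to 1342 in KO. The direction for this list thus differs between these measures. Gata3 and Tcf12 were not called. Of 5 tested genes of chromatin looping and recombination, 1 was lower, against the same 64.3%: Smc3, a cohesin subunit gene, had -0.74 (FDR = 0.0126 in the authors' deposited table). Added over the 8 genes of that list, the highest summits came to 412 to 495 in WT and 500 to 521 in KO. Rag1 had no summit in any library, and Rag2 had 10.1 to 12.5 in WT, 11.4 and 14.1 in KO replicates 2 and 3 and none in KO replicate 1.

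Among markers of other cells, Cd8a, Ncr1, Klrb1c and Gzma of CD8 T and natural killer cells, Cd79b, Ms4a1, Pax5 and Ighm of B cells, and Lyz2, Cebpa and Adgre1 of myeloid cells had no summit in any library. Other markers on these lists had summits. Cd8b1, a chain of the CD8 coreceptor, had heights of 39.4 to 45.9 in WT and 15.7 to 19.8 in KO, and was lower in the authors' deposited table (FDR = 5.76e-16). The B cell genes Cd79a and Ebf1 had 114 to 130 and 58.2 to 70.7 in WT, and 102 to 117 and 39.5 to 43.8 in KO. The myeloid factor gene Spi1 had 24.6 to 36.7 in WT and 23.1 to 23.8 in KO. The authors' deposited table called 1 of 2 tested CD8 T and natural killer cell genes, 3 of 3 B cell genes and 1 of 1 myeloid gene lower and none higher, where 64.3% of protein-coding genes were lower. The part of these cells in the locus differences was not tested. The summed heights were 39.4 to 55.7 in WT and 15.7 to 24.9 in KO for the 6 CD8 T and natural killer cell genes, 183 to 210 and 141 to 171 for the 8 B cell genes, and 87.5 to 115 and 74.6 to 108 for the 6 myeloid genes. The 6 T helper cell genes summed to 506 to 650 in WT and 1282 to 1332 in KO. Cd4 alone had 150 to 165 in WT and 889 to 922 in KO in that sum. The labels name the Cd4-cre transgene for KO alone, and its part in the Cd4 height was not tested. Thy1 fell from 51.9 to 74.1 in WT to 24.0 to 39.3 in KO, and Il2 from 41.1 to 57.2 to 24.0 to 26.6. Heights of Cd3e and Cd5 overlapped between genotypes. Il17a had no summit in WT replicate 1, and its heights in the other WT libraries were above those of every KO library. The authors' deposited table called 4 of these 6 genes lower and 1, Cd4, higher. The immunoglobulin loci, the receptor loci that T cells do not assemble, served as a comparison. Peaks covered 14427 to 16689 bp of Igh in WT and 3786 to 6773 bp in KO. Over all peaks of the genome the KO mean was 0.83 times the WT mean. The authors' deposited table called 12 of 15 Igh regions lower and none higher, where 46.3% of all regions were lower and 12.7% higher. Igk had 4 regions with none called in the authors' deposited table, and Igl had no peak in any library.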

How the data were processed

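H3K9/14ac ChIP libraries of WT and KO Th17 cells, 3 of each, were used. The submitters' processing notes name MACS2 2.2.6 and, among other tools, Bowtie2 2.3.5.1, and list mm10 and GRCm38 as builds. The sources used here do not give the program behind the differential table. Per library, the authors deposited peak lists called on paired-end fragments, used here, and on single reads, each with a score, a fold enrichment (a ratio) and p-values and q-values as -log10. For regions made of 150 bp windows, the authors' deposited table gives window numbers, the p-value and FDR, and the log2 fold change at the window that changed most. Values per library are absent from it, so its calls could not be recomputed without a library.

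Spans of the 24128 significant regions were deposited. The others were rebuilt from the single-read peaks (98.8% of listed spans returned exactly), 209 were placed by their best window and 1 was not located. Summit heights and mean coverage were solved from each peak's fold and p, within 0.01 of the deposited -log10 p. Tested on simulated data, 100% of 400 heights were returned. Peaks of the 6 libraries were merged into 56643 regions. The 20108 with a peak in every library were fitted with limma 3.58.1 (R 4.3.3) on log2(height + 0.5) over mean coverage, Benjamini-Hochberg adjusted. On simulated data for that comparison, over 20108 regions, 95% of 200 changes of 1 (log2) were called. Parts are runs of like segments with 1 kb on each side, and a gene is represented by its region of lowest FDR within 2 kb of either end of the span, which favours changed regions. Library values were tested by exact permutation of the genotypes, two-sided (Python 3.11.15).

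Named features follow a rule: regions over or beside C genes, the lowest FDR and lowest and highest fold change per part, all regions with peaks in 1 genotype alone, the tallest V segments, every tested receptor complex gene, the list genes of lowest FDR and the 3 genes most like each C gene. Others named were chosen after their values were seen. The members and lists were chosen with earlier results of these data known. Alternatives were single-read peaks, a -log10 q of at least 5, the 39264 strongest peaks per library, 50% coverage, other scalings and priors, leaving out each library, a replicate block, stricter calls and wider gene distances. No genome was used here, and single values of a pair of list genes are not reported here. Intervals cover counting error only where given, and heights have none.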

Additional observations from a re-analysis of the deposited data

How the results depend on the processing

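Of the alternatives to the counts and values above, 310 kept their direction and side of the threshold, or a count within 1.5 times, while 38 moved and 1 reversed. Covered lengths are among those 310 by direction alone, since no exact p of 3 against 3 libraries can fall below 0.1. With single-read peaks those of Tra V, Trb V, Trd V, Trd J, Trdc, Trg V and Trg C were over 1.5 times smaller (-4153, -6285, 40.7, 181, 70.7, 677 and 414 bp in place of -14072, -15478, 517, 1467, 327, 2826 and 3873 bp). With single-read peaks the tallest Trb V summit differed by -0.61 in place of 0.14, the Trac and Trbc parts differed by 25 and -145 bp in place of 0, and the Trg J part by 0 bp. Single-read regions with peaks in WT alone were 2 (Tra V) and 1 (Trb), and those in KO alone were 0 (Tra V), 2 (Tra J and C), 0 (Trd), 1 (Trb) and 0 (Trg). In Trg, single-read peaks over segments occurred in KO replicates 2 and 3 alone. At a -log10 q of at least 5 the regions in WT alone were 2 (Tra V) and 1 (Trb), and those in KO alone 0 (Tra V), 1 (Trd) and 3 (Trg). With equal numbers of peaks they were 1 (WT alone) and 0 (KO alone) in Tra V. At 50% coverage those in KO alone were 0 (Tra V), 0 (Trd) and 1 (Trg). At an FDR under 0.01 the table called 1 Tra J region higher and 4 Trb regions lower, and a log2 fold change of at least 1 left 2 in Trb. In the upper part of heights limma called 0 regions lower and 2 higher, with fewer regions fitted. Within 5 kb of genes, 2 receptor locus factors were higher, 4 looping and recombination genes lower and 4 gamma delta markers higher, and averaging regions gave the myeloid median as -1.49. The causes were not tested. Leaving out one library in turn gave 6 to 9 WT regions and 1 to 3 KO regions in Tra V, 0 to 1 KO regions in Tra J and C, 1 to 5 in Trd and 4 to 9 in Trg, and limma calls of 3 to 6 regions higher. KO replicate 1 set the upper value for Trd and Trg (5 and 9 without it), KO replicate 3 the lower for Trd (1), KO replicate 2 the lower for Trg (4) and limma (3), WT replicate 2 the upper for Tra V in WT (9, and 8 without KO replicate 1 or KO replicate 2), and WT replicate 3 the upper for Tra V in KO (3). Without WT replicate 3, whose tallest J summit fell outside the part, the Tra J height difference was 0.31 in place of 0.73. Same-numbered libraries showed no shared deviation (correlations of 0.01, -0.01 and 0.04), which does not settle whether the numbers pair them. With the replicate block limma called 2 regions lower and 7 higher in the loci, against 2 and 5, and 3 pairs reach no exact p below 0.25. Lower KO coverage limits the calling of faint KO peaks, and peak lists give no value where no peak was called.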
